A study of Mus musculus with 13 samples.

Results

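Mouse T-cell acute lymphoblastic leukaemia (T-ALL) was compared here with both stages of normal thymocyte at once, and the miRNAs of interest were those that the leukaemia held above or below the whole span from CD4-CD8- to CD4+CD8+ thymocytes. The comparison used 12 of the 13 arrays in the study, 6 of T-ALL and 6 of thymocytes. Thymocytes were double-negative (DN, CD4-CD8-) or double-positive (DP, CD4+CD8+) cells sorted from thymus. T-ALL cells were sorted as CD4+CD8+ cells from the spleen at early stage (ES) or late stage (LS), in bone marrow chimeras whose marrow was transformed with N1ICD, the active intracellular part of Notch1. All 4 groups were of strain C57BL/6 and had 3 biological replicates each, and each group had equal weight. Ages, the promoter driving N1ICD, the recipients and any pooling of animals are not given in the sources used here. The M295 cell line, with 1 array, was not analysed here. Tissue, N1ICD, chimera and disease differed together between the sides, so they cannot be told apart. Of 1122 mouse miRNAs on the array, 229 were tested, having been above background on every array of 1 group or more. A further 40 reached background on 2 of 3 arrays at most in any group, 39 on 1 of 3 at most, and 814 on no array. Of the 229, 64 passed through exactly 1 group, and 108 were above background on all 12 arrays.

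A miRNA is a short RNA that guides the silencing machinery to messenger RNAs, mainly through its seed, the bases near its 5′ end, so miRNAs with the same seed share many targets. DN thymocytes become DP thymocytes after the first T-cell receptor chain has been made, and the miR-181 family is known to rise at that step and to tune receptor sensitivity. Notch1 signalling drives early T-cell development and is normally shut off in DP cells, whereas activating NOTCH1 mutations are common in T-ALL.

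The sequences below are those on which the results turn. They are mature miRNAs from RefSeq (mouse assembly GRCm38.p6), written 5′ to 3′ with the seed, bases 2 to 8, in capitals. The first set holds miRNAs that were above the thymocyte range in T-ALL, with miR-130b-3p and miR-301a-3p added because they carry the seed of miR-721. The pair miR-3473 and miR-3473b is shown because both contain the run uggagagauggcucag of 16 bases, from base 1 of the former and base 5 of the latter. Among the 351 pairs that the 27 miRNAs beyond the range with a known sequence can form, the next longest shared run was 8 bases.
miR-721: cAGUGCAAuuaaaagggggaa
miR-130b-3p: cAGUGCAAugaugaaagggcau
miR-301a-3p: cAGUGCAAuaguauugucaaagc
miR-3472: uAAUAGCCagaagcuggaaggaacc
miR-370-3p: gCCUGCUGggguggaaccuggu
miR-342-3p: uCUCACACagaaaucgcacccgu
miR-344i: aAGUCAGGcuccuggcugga
miR-3098-5p: uCCUAACAgcaggaguaggagc
miR-3473: uGGAGAGAuggcucagca
miR-3473b: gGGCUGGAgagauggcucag

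The second set holds the 6 miRNAs below the thymocyte range, together with some tested relatives of the same seed, since seed families split in this comparison. The 4 miR-181 members share the seed ACAUUCA, the 3 miR-30 members shown here GUAAACA, and the miR-148 pair CAGUGCA. Among tested miRNAs with a sequence, the seeds of miR-128-3p and miR-374c-5p were their own.
miR-128-3p: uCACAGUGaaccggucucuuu
miR-148a-3p: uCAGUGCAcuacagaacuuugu
miR-148b-3p: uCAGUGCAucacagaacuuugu
miR-30a-5p: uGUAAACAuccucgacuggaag
miR-30c-5p: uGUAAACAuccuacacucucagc
miR-30e-5p: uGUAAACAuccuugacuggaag
miR-181a-5p: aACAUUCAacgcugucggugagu
miR-181b-5p: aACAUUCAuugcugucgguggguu
miR-181c-5p: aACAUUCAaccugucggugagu
miR-181d-5p: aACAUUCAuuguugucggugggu
miR-374c-5p: aUAAUACAaccugcuaagug

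A mature sequence was matched for 171 of the 229 tested miRNAs, 163 by name and 8 by an older symbol. The gene alone was matched for 45 more, and 13 array names, miR-714, miR-1940, miR-5109 and miR-720 among them, matched no RefSeq miRNA. In GRCm38.p6, mature miR-721 lies at chr5:136375777-136375797, miR-3472 at chrX:145039390-145039414 and miR-370-3p at chr12:109618305-109618326, in the imprinted Dlk1-Dio3 region. Mature miR-342-3p, from an intron of Evl, lies at chr12:108658680-108658702. Mature miR-148a-3p lies at chr6:51269829-51269850 and miR-30a-5p at chr1:23272274-23272295. The neighbours miR-181c-5p, at chr8:84178924-84178945, and miR-181d-5p, at chr8:84178759-84178781, start 165 bp apart.

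Array quality and cell identity were examined before the comparison. The lowest number of mouse miRNAs above background was 115, on ES 1, and the highest 244, on ES 3. The negative controls of ES 1 had a standard deviation of 18.7 intensity units against at most 7.11 on the other arrays. The blood cell miRNAs miR-142-3p and miR-142-5p together held 3.73 to 7.07% of the summed mouse miRNA signal on all 12 arrays. The thymocyte miRNAs miR-181a-5p and miR-181b-5p held 3.78 to 4.40% in DP, 0.750 to 0.876% in DN and 0.284 to 1.34% in T-ALL, so the T-ALL arrays lacked the DP level of these markers although the cells were sorted as CD4+CD8+. Myeloid miR-223-3p held 4.84% on ES 3, the highest T-ALL value, where the lowest T-ALL array had 0.00625% and thymocytes 0.00520 to 0.0256%. Its partner strand miR-223-5p was above background nowhere. Erythroid miRNAs, mostly miR-451, held 0.572 to 0.774% in DN, 0.00968 to 0.0178% in DP and 0.0134 to 1.25% in T-ALL, while miR-144-5p and miR-486-3p were above background nowhere. Of 7 endothelial and stromal miRNAs 6 were above background nowhere, and miR-126-3p was so on the DN arrays alone. Of 7 epithelial miRNAs 4 were above background nowhere and none was tested. miR-141-3p (2 ES and 2 LS arrays), miR-200c-3p (2 ES and 1 LS) and miR-200b-3p (1 LS) were above background on no thymocyte array. The 7 together held 0.00779 to 0.0431% in T-ALL and 0.00959 to 0.0164% in thymocytes. The 3 mature lymphocyte miRNAs, of which miR-342-3p is a member of the results below, held 0.122 to 0.561% in T-ALL and 0.0796 to 0.192% in thymocytes. They did not move together. miR-342-3p was higher on every T-ALL array, whereas miR-150-5p ran from 0.00493 to 0.186% in T-ALL and from 0.0247 to 0.163% in thymocytes. miR-146a-5p held 0.146% on ES 3 and at most 0.0183% on any other array. The part of these other cell types in the results was not tested, and in sorted bulk cells fewer cells of a type and less RNA per cell cannot be told apart.

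T-ALL stood outside the DN to DP range for a limited and mostly upward set of miRNAs. Levels are log2 of the scaled signal, where 0 is the array's 75th percentile over the 108 miRNAs measured everywhere and -7.59 is the common floor. Differences of levels are on the same log2 scale, and calls are at an adjusted p under 0.05 in limma. Against the equal-weight mean of both thymocyte stages, 133 of the 229 miRNAs were called (58.1%), 72 higher (31.4%) and 61 lower (26.6%), with a median difference over all tested of -0.12. Most of these differed from 1 stage more than from the other. A miRNA was called beyond the range only when T-ALL differed from DN and from DP in the same direction, with the larger of the pair of one-sided p-values, doubled and adjusted over all 229. Of all tested miRNAs, 38 met this (16.6%), 32 above the range (14.0%) and 6 below it (2.62%). Both stage contrasts share the T-ALL arrays. Of the other miRNAs called in the pooled comparison, 82 had a T-ALL mean outside the range but were not called beyond it, 39 higher and 43 lower. The remaining 13 had a T-ALL mean between the stages, 12 called lower and 1 called higher.

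**Figure D1:**
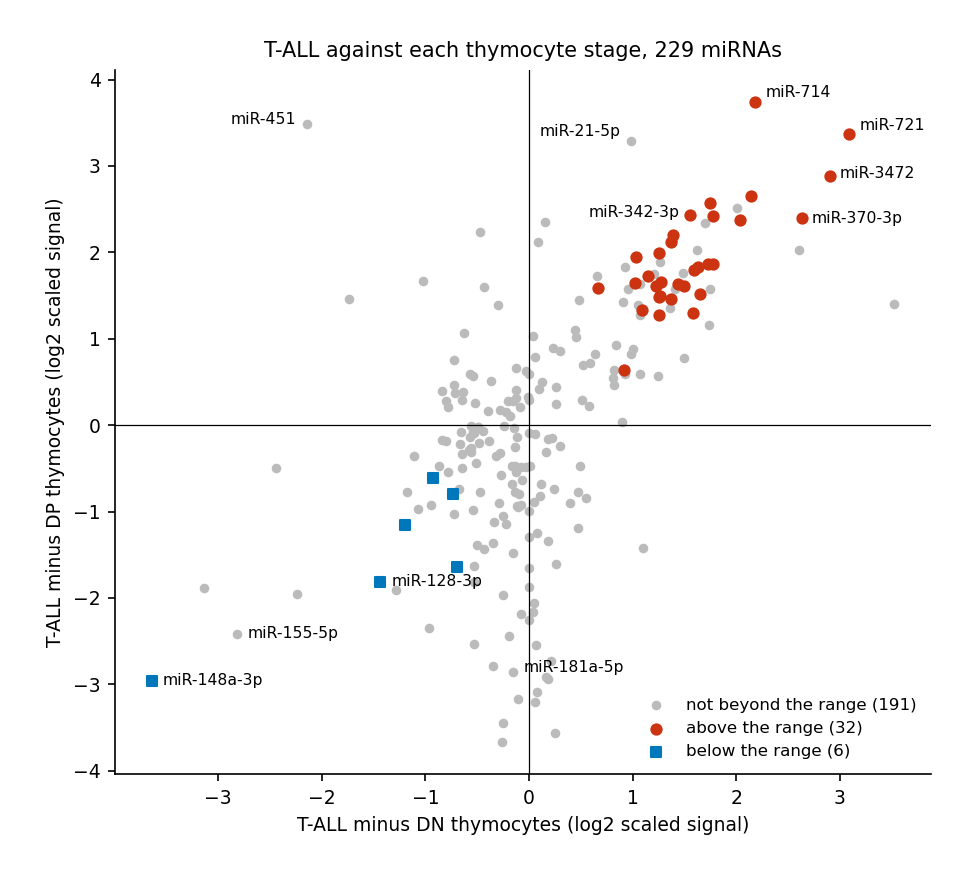
Each of the 229 points is a tested miRNA, with the log2 difference of T-ALL from DN on the horizontal axis and from DP on the vertical axis. The 32 miRNAs above the range (red circles) lie at the upper right, the 6 below it (blue squares) at the lower left, and the 191 not called beyond the range (grey) fill the rest.

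On single arrays, all 6 T-ALL arrays lay apart from all 6 thymocyte arrays for 33 of the 38, 28 above and 5 below, where 45 of all tested miRNAs did so (19.7%), 35 higher (15.3%) and 10 lower (4.37%). The groups overlapped for miR-139-3p, miR-148a-3p, miR-3096b-5p, miR-5119 and miR-5622-3p. For 27 of the 32 miRNAs above the range the nearer stage was DN, and for 5 it was DP. Below the range it was DN for 3 and DP for 3. The distance from the nearer stage had a median of 1.41 above the range, from 0.64 to 3.09. In thymocytes 19 of the 32 had a signal under the 50th percentile of their array, as 117 of all 229 did, and 1 of the 6 below the range did.

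The direction of all 38 held on each slide and with each of the 6 other scalings and background settings recorded for them, but the number of calls depended on the thymocyte arrays. Without DN 1, DN 2 or DN 3 the calls beyond the range fell to 11, 12 and 11, without DP 1, DP 2 or DP 3 to 18, 21 and 15, and without LS 1 to 25. Leaving out LS 2 gave 26. The count rose without ES 1, ES 2, ES 3 or LS 3, to 47, 51, 55 and 54. The rise was therefore not limited to ES 1 and ES 3, the arrays that stood apart above. With the replicate number as a block, 17 of the 38 kept the call. The arrays lay on 2 slides. Slide 1 held 1 array each of DN and DP and 2 each of ES and LS, and slide 2 held 2 each of DN and DP and 1 each of ES and LS, so every test within a slide has groups of 1 array that are assumed to vary like the others: 30 miRNAs were called beyond the range with the slide as a block, 2 on slide 1 alone and 80 on slide 2 alone, against 118, 30 and 150 in the pooled comparison. On slide 1 the pooled calls were 7 higher and 23 lower.

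**Figure D2:**
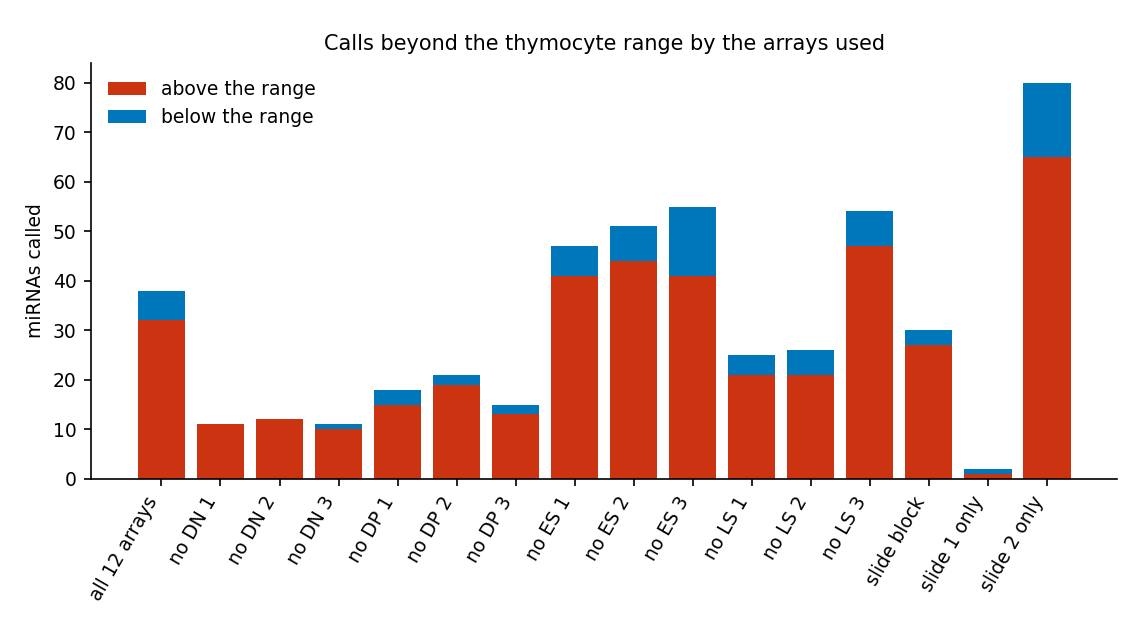
Bars give the number of miRNAs called beyond the DN to DP range, split into above and below, for all 12 arrays, with each array left out, with the slide as a block and within each slide. The count is 38 with all arrays, lowest (11) without DN 1 or DN 3 among the fits that leave out an array, and 2 on slide 1 alone.

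Of the miRNAs above the range 8 kept the call in each of the 12 fits that leave out an array, with the slide as a block, on slide 2 and under each scaling and background setting: miR-721, miR-3472, miR-370-3p, miR-1940, miR-5109, miR-3473, miR-3473b and miR-3098-5p. Slide 1 alone was not part of this rule, and most of the 8 did not keep the call there, although the direction held. A further miRNA, miR-344i, kept its call in the 12 fits but not under the normexp background. miR-3472, miR-1940 and miR-344i were above background on no thymocyte array and were tested only because of their T-ALL signal. For them the filter favoured a higher value in T-ALL, so their calls and the fits they held in are no independent support.

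The highest rise was that of miR-721, which carries the seed of the miR-130 and miR-301 family. Its level was -5.83, -5.43 and -6.05 on the 3 DN arrays, -5.83, -5.62 and -6.68 on the 3 DP arrays, -2.99, -3.67 and -2.61 on the 3 ES arrays and -1.20, -2.27 and -3.34 on the 3 LS arrays. Every T-ALL array was far above every thymocyte array, and 4 of 6 thymocyte arrays were above background. The difference from DN, the nearer stage, was 3.09 ± 0.44 (SE), or 8.51-fold (adjusted p = 0.00232 in limma), and from DP 3.37. Its seed relatives went the other way in the pooled comparison, with miR-130b-3p at -0.47 (adjusted p = 0.0450) and miR-301a-3p at -0.43 (adjusted p = 0.0125), and neither was beyond the range.

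For miR-3472, levels were -7.59, -7.25 and -7.59 in DN and -7.59, -7.21 and -7.59 in DP, against -5.08, -5.88 and -4.70 in ES and -3.09, -4.25 and -4.46 in LS. It was above background on no thymocyte array and on 5 of 6 T-ALL arrays, so the fold is a bound, at least 6.98-fold over the nearer stage (adjusted p = 0.0011). Likewise above background on no thymocyte array was miR-1940, at -6.66, -6.34 and -7.06 in DN, -7.18, -6.83 and -7.59 in DP, -5.79, -4.89 and -4.18 in ES and -3.71, -3.95 and -4.72 in LS. By measured signal it was 4.43-fold above the nearer stage (adjusted p = 0.00418 in limma). That fold is an estimate from thymocyte signals that were not above background. For both the groups did not overlap, and the LS arrays were mostly the highest. RefSeq holds no gene of the name miR-1940.

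From the imprinted Dlk1-Dio3 miRNA cluster, miR-370-3p was at -6.25, -5.74 and -6.39 in DN and -5.95, -5.59 and -6.12 in DP. In T-ALL it was at -4.44, -4.47 and -2.05 in ES and -3.26, -3.35 and -3.42 in LS. The thymocyte arrays were all near the lower end of the measured range, and the T-ALL arrays were all above them with ES 3 the highest. The difference from DP, the nearer stage, was 2.39 ± 0.47, or 5.25-fold (adjusted p = 0.00891). The difference was 2.07 on slide 1 alone and 3.12 on slide 2 alone. Without ES 3 the difference was 1.99.

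By signal, miR-5109 was the brightest of the set. It was at 1.94, 1.92 and 1.94 in DN, 1.41, 1.51 and 0.96 in DP, 3.43, 2.79 and 3.15 in ES and 4.94, 4.25 and 3.68 in LS. DN arrays were nearly equal, DP arrays lower, and all T-ALL arrays higher with LS above ES. The difference from DN was 1.78 ± 0.27, or 3.43-fold (adjusted p = 0.00232). RefSeq has no gene of this name.

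The miR-3473 pair moved by similar amounts at different brightness. miR-3473 was between -4.08 and -3.73 on the thymocyte arrays (median -3.83) and between -3.42 and -1.75 on the T-ALL arrays (median -2.51), 2.39-fold above DN (adjusted p = 0.00232). miR-3473b was between -0.85 and -0.32 in thymocytes (median -0.52) and between -0.04 and 1.79 in T-ALL (median 0.99), 2.59-fold above DN (adjusted p = 0.00232). Neither overlapped between groups. They share a run of 16 bases, and binding of either to the probes of the other was not tested.

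miR-3098-5p lay between -5.61 and -4.97 in thymocytes (median -5.16) and between -4.71 and -2.99 in T-ALL (median -3.77), 2.41-fold above DN (adjusted p = 0.0088). miR-344i, above background on no thymocyte array and 4 T-ALL arrays, lay between -7.45 and -6.73 in thymocytes (median -7.18) and between -6.61 and -4.87 in T-ALL (median -5.81). By measured signal it was an estimated 2.41-fold above DN (adjusted p = 0.00294), and it passed the filter through T-ALL alone. In both the T-ALL arrays were all higher, though in miR-344i the gap between the nearest arrays was small.

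**Figure D3:**
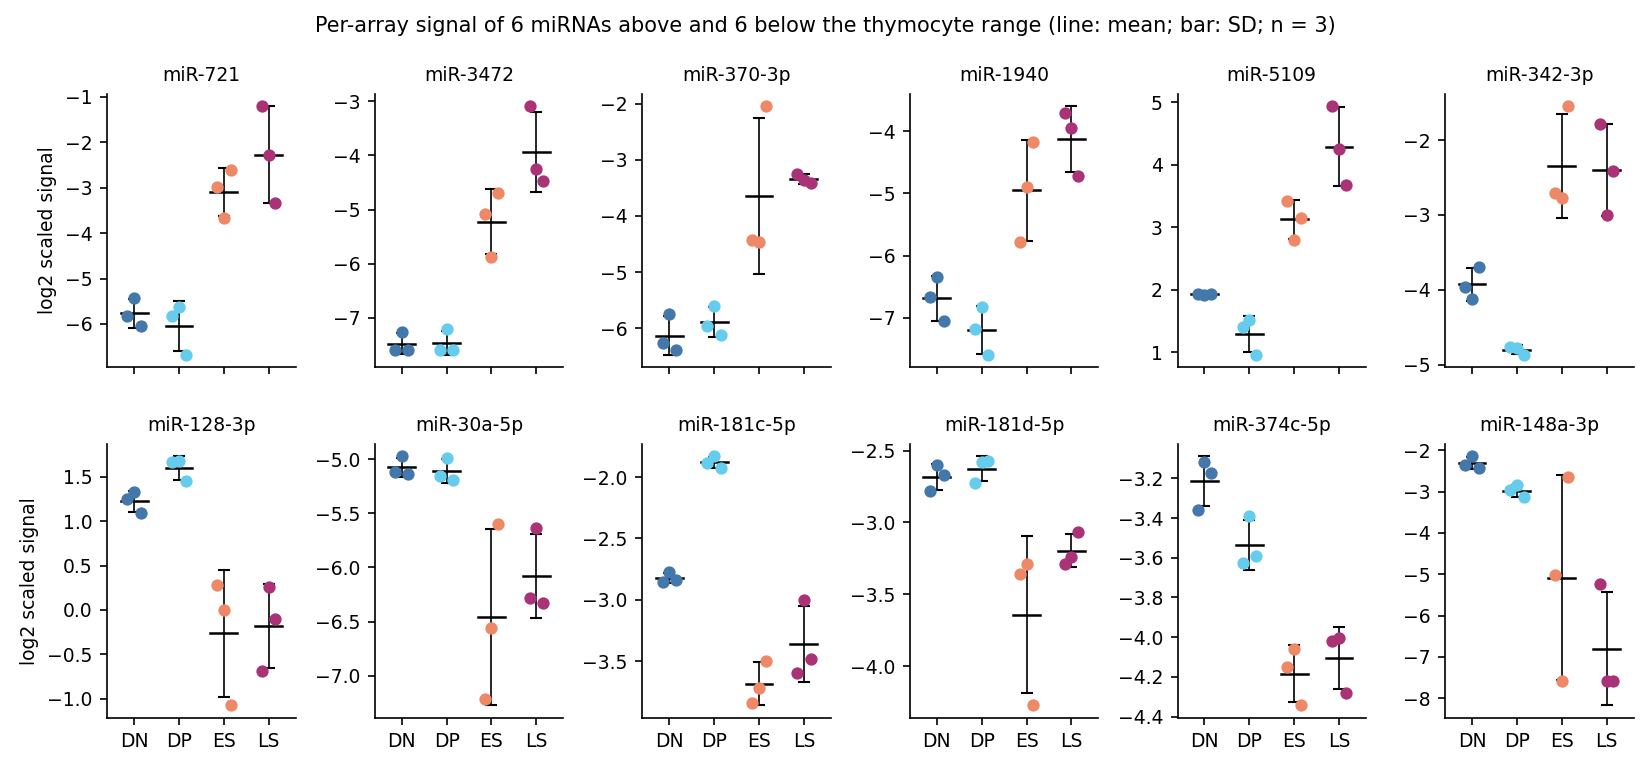
Each panel plots the log2 scaled signal of a miRNA on each array by group, with the group mean as a line and its SD as a bar (n = 3 arrays). The 6 upper panels (miR-721, miR-3472, miR-370-3p, miR-1940, miR-5109, miR-342-3p) show T-ALL arrays above all thymocyte arrays, and of the 6 lower panels miR-148a-3p shows ES 3 between the thymocyte groups at -2.65.

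Among the others above the range, some are known from other tissues or from lymphocytes. miR-342-3p, from the lymphocyte gene Evl, was at -3.96, -4.12 and -3.69 in DN, -4.76, -4.77 and -4.87 in DP, -2.71, -2.77 and -1.55 in ES and -1.78, -3.0 and -2.41 in LS. All T-ALL arrays were above all thymocyte arrays, and DP arrays were the lowest. It was 1.55 ± 0.32 above DN, or 2.93-fold (adjusted p = 0.011), and 2.43 above DP. The call was lost without DN 1 or DN 2, with an adjusted p of at most 0.0554.

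miR-483-5p, from an intron of Igf2, was 4.11-fold above DN (adjusted p = 0.0361), between -7.16 and -5.98 in thymocytes and between -5.88 and -3.17 in T-ALL. The neighbouring arrays of the groups nearly touched, and the call was lost in 8 of the 12 fits that leave out an array (adjusted p of at most 0.144). miR-714 was 4.53-fold above DN (adjusted p = 0.0088), at -4.40, -4.37 and -5.06 in DN, -5.84, -5.71 and -6.98 in DP, -3.23, -2.91 and -3.58 in ES and -0.90, -1.27 and -2.70 in LS. Its group means were ordered LS, ES, DN and DP from the highest down, and it lost its call without DN 3 (adjusted p = 0.0516).

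Further members were nearer to the range. miR-3102-5p.2-5p was an estimated 3.43-fold above DN (adjusted p = 0.0209) and miR-211-3p, from an intron of Trpm1, 3.36-fold (adjusted p = 0.0445). miR-706 was 3.32-fold (adjusted p = 0.0225) and miR-3096-5p 3.10-fold (adjusted p = 0.0088) above DN. With an array left out, the call of miR-211-3p was lost in 9 of the 12 fits, those of miR-706 and miR-3102-5p.2-5p in 5 and that of miR-3096-5p in 1. It was also lost with the slide as a block for miR-211-3p (0.0708), and under normexp (0.0556) and the median over probes (0.0850) for miR-706. miR-139-3p, from an intron of Pde2a, was an estimated 3.01-fold above DN with overlapping arrays (adjusted p = 0.0418). miR-125a-3p, of the cluster with miR-99b and let-7e, was an estimated 2.04-fold above DN (adjusted p = 0.0445). Both lost the call in 9 of the 12 fits and under normexp (0.149 and 0.0762), and miR-139-3p also with the slide as a block (0.0732) and with the authors' value table (0.0722). Of all 32 above the range, 23 lost the call in at least 1 of the 12 fits and 17 in 5 or more. The smallest steps among the 32 were those of miR-5099, 0.67, and miR-669p-3p, 0.64.

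The 6 miRNAs below the range were brighter in thymocytes than those above it, with a median thymocyte percentile rank of 72.1 against 40.2. This is a description only, because both sets were chosen on these signals. A miRNA near the floor in thymocytes had no room to be called below the range. miR-128-3p, which is known to target Phf6, was the brightest of the 6. It was at 1.25, 1.33 and 1.09 in DN, 1.67, 1.68 and 1.45 in DP, 0.29, -0.00 and -1.07 in ES and -0.68, 0.26 and -0.10 in LS. Every T-ALL array was below every thymocyte array, the lowest being ES 3. It was -1.44 ± 0.30 from DN, a 2.71-fold lower signal (adjusted p = 0.011), and -1.82 from DP. The call was lost without DN 1 or DN 2 (adjusted p of at most 0.0554) and with the 75th percentile over all mouse miRNAs (0.0552).

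miR-148a-3p, of the family that targets DNA methyltransferases, had the largest distance below the range and the least even one. It was at -2.36, -2.15 and -2.42 in DN, -2.97, -2.84 and -3.14 in DP, -5.01, -7.59 and -2.65 in ES and -5.23, -7.59 and -7.59 in LS. It was above background on 2 of 6 T-ALL arrays, and ES 3 lay among the thymocytes. The difference from DP was -2.96 ± 0.89 (adjusted p = 0.0464). It was -3.57 without ES 3, the array with high miR-223-3p, lost its call in 9 of the 12 fits that leave out an array, and had an adjusted p of 0.0900 with the slide as a block and 0.0898 with the median over probes. Its seed relative miR-148b-3p differed by 0.16 in the pooled comparison (adjusted p = 0.427) and had a mean between DN and DP.

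miR-30a-5p, which is known to target Notch1, was between -5.19 and -4.97 on all 6 thymocyte arrays and between -7.22 and -5.60 in T-ALL. Thymocyte arrays were nearly level across stages, and all T-ALL arrays were lower. It was -1.16 ± 0.31 from DP, 2.24-fold lower (adjusted p = 0.0323), and lost its call in 7 of the 12 fits with the slide as a block (0.0566) and under normexp (0.110) or the median over probes (0.103). The other members shown with its seed, miR-30c-5p (-0.73) and miR-30e-5p (-0.65), were called lower in the pooled comparison and not beyond the range. All 5 tested miR-30 members were called lower, and of these only miR-30a-5p was below the range.

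The miR-181 family divided by the normal stages. miR-181a-5p was at -0.98, -0.83 and -0.68 in DN and 1.80, 1.88 and 1.96 in DP, and in T-ALL at -2.52, -1.55 and 0.11 in ES and -0.91, -0.01 and -0.99 in LS. T-ALL was thus well under DP, by -2.86, and around DN, at -0.15. miR-181b-5p gave -0.16 against DN and -1.49 against DP.

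The pair from chromosome 8 was below both stages. miR-181c-5p was at -2.86, -2.78 and -2.84 in DN, -1.89, -1.83 and -1.92 in DP, -3.84, -3.72 and -3.50 in ES and -3.60, -3.01 and -3.48 in LS. All T-ALL arrays were under the DN arrays, by -0.70 ± 0.16 on average, or 1.62-fold (adjusted p = 0.0224). miR-181d-5p was level over thymocytes, -2.78 to -2.57, and at -4.27 to -3.07 in T-ALL, -0.74 ± 0.21 from DN (adjusted p = 0.0435). The miR-181d-5p call was lost in 8 of the 12 fits that leave out an array, with the slide as a block (0.0562) and under each of the 6 other scalings and background settings (0.0537 to 0.505), and the miR-181c-5p call without DN 1, DN 2 or DN 3 and with the 75th percentile over all mouse miRNAs (0.0792).

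miR-374c-5p was at -3.36, -3.12 and -3.17 in DN, -3.63, -3.39 and -3.59 in DP, -4.15, -4.06 and -4.34 in ES and -4.02, -4.01 and -4.28 in LS. It had the smallest spread within T-ALL of the 6, and no array overlapped. It was -0.61 ± 0.15 from DP, 1.52-fold lower (adjusted p = 0.0225), and the call was lost without DN 1, DN 2, DN 3, DP 2 or DP 3 and with the 75th percentile over all mouse miRNAs (0.599).

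Several miRNAs known in T cells or leukaemia moved in the pooled comparison but were not called beyond the range. miR-21-5p, a widely known oncogenic miRNA, was at 1.30, 1.41 and 1.12 in DN, -0.95, -0.89 and -1.27 in DP, 2.11, 2.02 and 3.42 in ES and 2.79, 1.39 and 1.82 in LS. T-ALL was far above DP and partly overlapped DN, where LS 2 was within the DN arrays. The pooled difference was 2.14 (adjusted p = 0.000324), with 3.29 against DP and 0.98 against DN (95% interval 0.19 to 1.78, adjusted p = 0.0618), and its beyond-range adjusted p was 0.0957. By share of signal it was called beyond the range (0.0477) and by rank it was not (0.0753).

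miR-449a-5p, with a seed of the miR-34 family, was at -5.94, -5.93 and -5.74 in DN, -3.72, -3.63 and -3.90 in DP, -0.83, -3.12 and -3.12 in ES and -1.16, -2.53 and -3.33 in LS. All T-ALL arrays were above all thymocyte arrays, with ES 1 and LS 1 the highest. It was 3.52 above DN and 1.40 above DP, with a beyond-range adjusted p of 0.104.

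miR-155-5p, a miRNA of lymphocyte activation, was at -3.02, -2.77 and -2.95 in DN, -3.34, -3.28 and -3.34 in DP, -5.29, -7.59 and -2.35 in ES and -4.77, -7.59 and -6.80 in LS. ES 3 was above the thymocytes and the other T-ALL arrays were far below. The pooled difference was -2.62 (adjusted p = 0.0146), and -3.30 without ES 3, and by signal it was not called beyond the range (0.104). miR-322-5p, which shares the seed of miR-15 and miR-16, had the same pattern, with ES 3 at -3.21, the other T-ALL arrays at -6.74 or lower and thymocytes between -4.98 and -4.38. On ES 3 miR-223-3p was also high, at 2.85 against -5.93 or lower on the other T-ALL arrays. The part of that in these values was not tested.

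T-ALL lay inside the normal range for 13 called miRNAs, and in all 13 the T-ALL mean was nearer to DN than to DP. For the 12 called lower, DP was the higher stage and T-ALL was 0.04 to 0.25 above DN. miR-672-5p was at -7.30, -7.59 and -7.36 in DN and -3.95, -3.71 and -3.14 in DP, and in T-ALL at -7.59, -7.59 and -6.99 in ES and -7.59, -7.59 and -5.62 in LS. T-ALL differed by -3.56 from DP and by 0.25 from DN (95% interval -0.66 to 1.17). miR-466j, of the large miRNA group named after Sfmbt2, was at the floor on 2 DN arrays, all ES arrays and 2 LS arrays, barely above it on DN 1, and at -4.78, -4.62 and -4.14 in DP. With DN and most T-ALL arrays at or near the floor, miR-672-5p and miR-466j owed their test to DP. The same holds for miR-669f-5p, miR-669k-5p and miR-669o-5p, at the floor on every DN array and most T-ALL arrays. For all of these the filter favoured the lower call. Their place inside the range near DN was set by the floor and gives no level.

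At high signal, miR-15b-5p was at 1.75, 1.85 and 1.73 in DN, 2.78, 2.77 and 2.59 in DP and between 1.71 and 1.97 on all T-ALL arrays, 0.05 from DN (95% interval -0.25 to 0.35) and -0.88 from DP. miR-16-5p, its cluster neighbour, was 0.10 from DN and -0.82 from DP. For both, T-ALL arrays were close to DN and separate from DP. The only called miRNA of the 13 that was higher in T-ALL, miR-101b-3p, known to repress Ezh2, was -0.43 from DN and 1.60 from DP, 0.59 in the pooled comparison (adjusted p = 0.0245). The call was lost without DN 1, DN 3, DP 3 or ES 2 and the difference was 0.17 with the authors' value table (adjusted p = 0.540).

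Signal rank, the percentile of a miRNA among the 229 on its own array, needs no scaling between arrays. By rank 60 miRNAs were called beyond the range (26.2%), 43 above (18.8%) and 17 below (7.42%), and 31 of the 38 called by signal were among them. Without DN 1, DN 2, DN 3, DP 1 or DP 3 the 60 became 25, 29, 21, 34 and 39. With the slide as a block 47 were called, 2 on slide 1 and 74 on slide 2. The mean rank of miR-3472 went from the 4.37th percentile in thymocytes to the 43.9th in T-ALL, and that of miR-721 from the 26.1st to the 68.0th. miR-370-3p went from the 24.3rd to the 58.4th and miR-1940 from the 10.6th to the 44.0th. All 4 were in the dimmer part of the thymocyte ranking and near the middle of the T-ALL ranking or above it. Since miR-3472 and miR-1940 were above background on no thymocyte array, their thymocyte ranks are among values with no exact order there and only say that they were dim.

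miR-3474 was called by rank (adjusted p = 0.0324, 29.8 points above DP) and not by signal (0.104). It was above background on no thymocyte array and on 4 T-ALL arrays, so the same limit holds for it. Downwards, miR-148a-3p went from 72.3 to 25.3, miR-155-5p from 67.5 to 27.1 and miR-30a-5p from 38.9 to 20.2. Called below the range by rank and not by signal were miR-155-5p (-38.3 points from DP, adjusted p = 0.0375), miR-322-5p (-28.4 points, 0.0324) and miR-296-5p (-18.9 points, 0.0344), among 12 such miRNAs. miR-296-5p was between -3.74 and -3.56 in thymocytes and between -5.26 and -3.83 in T-ALL, without overlap, and its adjusted p by signal was 0.0641.

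At the top of the list rank has little room. miR-5109 was the 7th to 14th brightest miRNA on the thymocyte arrays (median 9.5) and the 1st to 4th in T-ALL (median 2), and its rank call failed (adjusted p = 0.101). miR-128-3p, between 8th and 16th in thymocytes, was between 21st and 46th in T-ALL, and miR-721 went from 150th to 203rd in thymocytes to 48th to 91st. The other miRNAs called by signal and not by rank were miR-139-3p, miR-181d-5p, miR-211-3p, miR-5099, miR-5117-5p and miR-709.

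**Figure D4:**
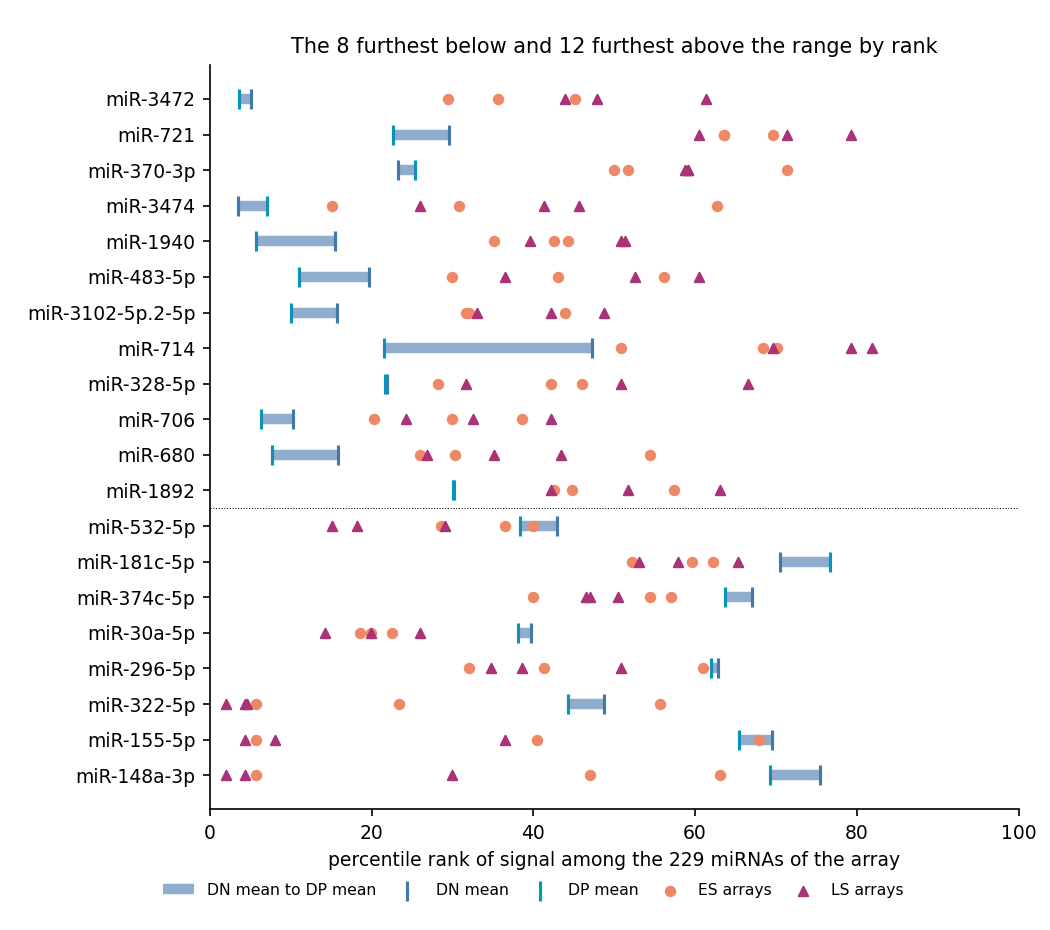
Each line of the plot is a miRNA, with its percentile rank within the array on the horizontal axis, a bar from the DN mean to the DP mean and a point for each ES and LS array. The 8 furthest below the range by rank lie at the bottom and the 12 furthest above at the top, where miR-3472 and miR-721 lie 38.8 and 38.4 points above the nearer stage.

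Share is the percent of an array's summed mouse miRNA signal, and it is a share of signal, not of molecules. By share 45 miRNAs were called beyond the range (19.7%), 40 above (17.5%) and 5 below (2.18%), 36 of them also by scaled signal, and without DN 1, DN 2, DN 3 or DP 3 the 45 became 16, 26, 18 and 27. With the slide as a block 42 were called, 1 on slide 1 and 85 on slide 2. All 3 measures called 30 miRNAs, 25 above and 5 below. Called by share and not by scaled signal were miR-149-3p, miR-21-5p, miR-328-5p, miR-3960, miR-5112, miR-5128, miR-671-5p, miR-680 and miR-705. Only miR-181d-5p and miR-669p-3p were called by signal and not by share.

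The miRNAs above the range took a larger share of the signal in T-ALL, given here as a description because they were chosen on these signals. The 32 miRNAs above the range held 5.51, 5.52 and 5.22% of the signal in DN, 4.22, 4.66 and 3.48% in DP, 12.02, 10.1 and 14.0% in ES and 32.2, 24.1 and 16.8% in LS. The LS arrays were the highest, and no T-ALL array overlapped the thymocytes. miR-5109 alone held 2.91, 2.80 and 2.91% in DN, 2.12, 2.30 and 1.64% in DP, 7.91, 5.87 and 5.96% in ES and 20.3, 14.9 and 10.1% in LS. Without miR-5109 the set held 7.36 ± 3.01% in T-ALL and 2.32 ± 0.321% in thymocytes (SD, n = 6). The 6 below the range held 0.907 ± 0.261% in T-ALL and 2.63 ± 0.450% in thymocytes, of which miR-128-3p made 0.690% and 2.11%.

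**Figure D5:**
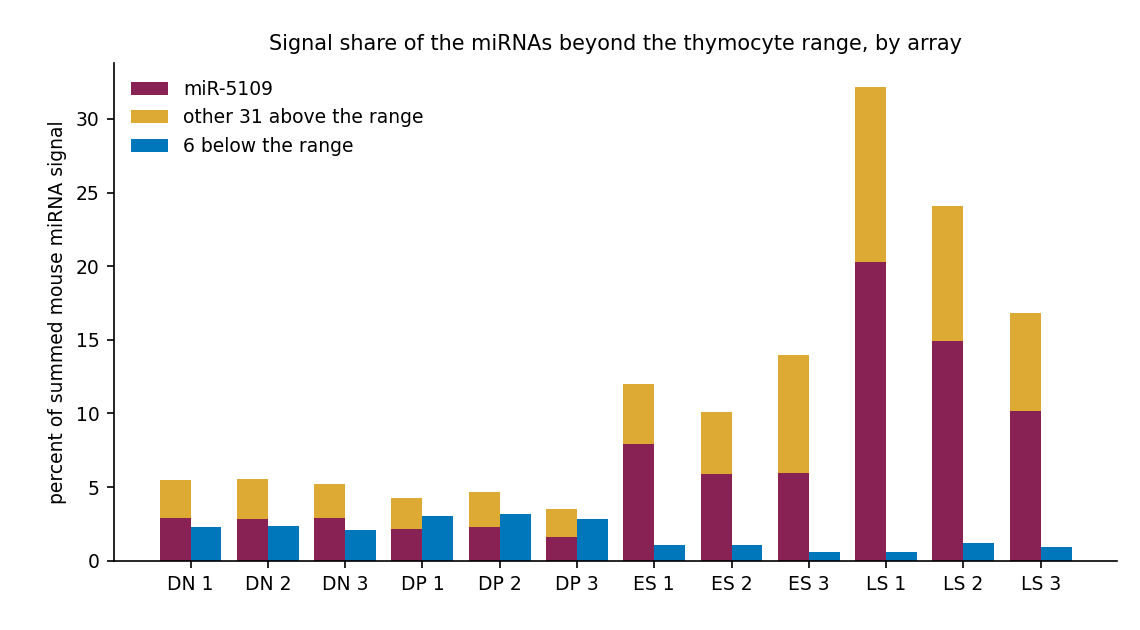
Stacked bars give, for each of the 12 arrays, the percent of summed mouse miRNA signal held by miR-5109, by the other 31 miRNAs above the range and by the 6 below it. miR-5109 takes 1.64 to 2.91% on thymocyte arrays and 5.87 to 20.3% on T-ALL arrays, with LS 1 the highest.

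The concentration of signal on the brightest miRNAs was not shown to differ. The 10 brightest miRNAs of an array held 58.0 ± 3.74% in T-ALL and 58.2 ± 2.26% in thymocytes, a difference of -0.207 points (exact permutation test over arrays, two-sided, p = 0.909, n = 6 and 6). The direction turned on slide 1 (0.124) and was -1.62 on slide 2. It was -3.18 without names that match no RefSeq miRNA (exact permutation p = 0.199) and -1.81 without the 5 miRNAs of highest mean signal in the sum (p = 0.348). The number of miRNAs that held 90% of the signal was 48.3 in T-ALL and 44.3 in thymocytes (exact permutation p = 0.290). On all 12 arrays 5 miRNAs were among the 10 brightest, and 22 were on any array. miR-3963 was the brightest on every thymocyte array and 1st or 2nd in T-ALL, with 24.3% and 18.9% of the signal. miR-21-5p went from 12th to 44th place in thymocytes to 2nd to 12th in T-ALL, with 1.11% and 3.86%.

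Names with no RefSeq gene bear on this. Of the 13 such tested names 7 were above the range and 0 below, against 25 of the other 216 above. Over all such names on an array the share was 18.3 ± 5.27% in T-ALL and 10.99 ± 1.06% in thymocytes, a difference of 7.35 points (exact permutation test, two-sided, p = 0.0021645, the smallest this design allows). That difference was carried by miR-5109: without it the other names held 7.49 ± 1.10% in T-ALL and 8.54 ± 0.664% in thymocytes, a difference of -1.05 points (exact permutation p = 0.0844, a sum added after the values were seen). What RNA their probes bind was not tested. A check of base composition is void, because a sequence was known for 65.6% of the 32 miRNAs above the range and 74.7% of all tested, under the 80% that such a check requires.

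Families and pathway lists are described by counts, beside the 31.4% higher and 26.6% lower of all tested miRNAs. All 4 miR-181 members were called lower in the pooled comparison, with a median of -0.996 (-0.43 against DN, -1.56 against DP), and all 5 miR-30 members were lower, with a median of -0.65 (-0.25 against DN, -1.05 against DP). The median of all tested was -0.12. Of the 5 tested members of the miR-15/16 family, 3 were lower, 4 had means between the stages and none was beyond the range. The cell-cycle promoting miR-17~92 cluster and its paralogs had 1 of 12 lower and none higher, with 6 means inside the range. Of the let-7 family 2 of 8 were lower, and of the miR-29 and of the miR-23, miR-27 and miR-24 lists none was called in either direction, out of 3 and 5.

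Among the Sfmbt2-type names 27 of 61 were tested, 4 higher and 13 lower, with 1 above the range, miR-669p-3p, and a median of -0.76 (-0.998 against DP). Of these names 27 to 29 were above background on each DP array, 9 to 16 on each DN array, 1 to 18 on each ES array and 11 to 26 on each LS array. For a member tested only through its DP signal, the filter itself favoured a lower call, so the count of lower members is no support for a fall. Of 4 tested miR-130 and miR-301 members 1 was higher, miR-721, and 2 lower. Of the 4 tested members of miR-26 and miR-101, known to repress Ezh2, 2 were lower and miR-101b-3p was higher. miR-26a-5p was at -0.96, -0.74 and -0.83 in DN, 0.49, 0.61 and 0.51 in DP, -3.53, -2.14 and -0.52 in ES and -1.84, -1.50 and -1.32 in LS. ES 3 again was the highest T-ALL array and above DN. Against DN the difference was -0.96 (95% interval -2.06 to 0.13) and against DP -2.34.

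Of miRNAs known as oncogenic in T-ALL, 1 of 6 was higher (miR-21-5p) and 1 lower (miR-26a-5p), with a median of -0.22. Of those known as tumour-suppressive, 1 of 6 was lower (miR-155-5p) and none higher, with a median of 0.04. Of 4 tested lymphocyte activation miRNAs 1 was higher (miR-21-5p) and 1 lower (miR-155-5p), with a median of -0.39. Of 4 Notch1-linked miRNAs, with a median of 0.89, miR-709 was above the range, 2.38-fold over DN (adjusted p = 0.0418), and miR-30a-5p below it. The call of miR-709 was lost in 8 of the 12 fits that leave out an array, with the slide as a block (0.0602) and after quantile normalization (0.0577). miR-451 and miR-223-3p were not called. Within T-ALL miR-451 ran from -5.98 on ES 2 to 0.58 on LS 2, with DN between -0.50 and -0.06 and DP between -6.45 and -5.49, so its T-ALL arrays covered most of the normal span.

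The stages of leukaemia were also set singly against the normal stages, as a description, since the 32 were chosen because T-ALL exceeded both. For 30 of the 32 miRNAs above the range the LS mean was above the ES mean, as for 159 of all 229. LS exceeded DN with a call for all 32 and DP for all 32, where 59 (25.8%) and 74 (32.3%) of all 229 were called higher. ES exceeded DN with a call for 8 and DP for 29, where 9 (3.93%) and 48 (21.0%) of all 229 were called higher, and ES 1 had the noisiest negative controls. LS 1 was the highest T-ALL array for 19 of the 32, ES 3 for 8 and LS 2 for 5, and ES 2 was the lowest for 18 and ES 1 for 11. The difference between LS and ES itself was called for 3 of the 32, where 6 of all 229 were (2.62%): miR-344i (1.32, adjusted p = 0.0202), miR-3473 (1.16, 0.0238) and miR-3473b (1.33, 0.0202). Of the 6 below the range, ES was under DN with a call for 5 and under DP for 5, and LS under DN for 3 and under DP for 5, where all tested gave 2.62%, 25.3%, 7.42% and 26.2% lower in the same order. All 4 stage contrasts were called for 10 miRNAs: miR-1940, miR-3096-5p, miR-342-3p, miR-3472, miR-370-3p, miR-5109, miR-669p-3p and miR-721 above the range, and miR-128-3p and miR-374c-5p below it. Among the 32, DP differed from DN with a call for 2, against 67 of all 229 (29.3%).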

How the data were processed

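Total RNA from sorted cells was hybridised to 1-colour (Cy3) Agilent mouse miRNA arrays with miRBase release 18 names. Per the file headers, images were read with Feature Extraction 10.7.3.1, and the deposited scanner files hold a background-subtracted intensity per spot, not scaled between arrays. A further deposited table gives log2 values that compare with the scanner values as quantile normalized, every column having a median of 3.29. RMA, affy, MAS5 and GCOS appear in the submitters' processing notes, with no version.

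Control and outlier spots (4.06 to 8.63% of spots) were left out, no spot was saturated, and means were taken over the spots of a probe, then over the probes of a miRNA. Arrays were scaled to the 75th percentile of the 108 miRNAs above background on all 12, floored at -7.59 and put on the log2 scale. A miRNA was above background where at least 50% of the kept spots of a probe carried the software's mark. The fold of miR-3472 is given as a lower bound, with each thymocyte array set to at least its lowest signal above background. The other folds are from measured signal, also where that was not above background in thymocytes. The 12 arrays were fitted in limma 3.58.1 (R 4.3.3) with a mean per group and no covariate. P-values were adjusted by Benjamini-Hochberg over 229 miRNAs. The slide was read from the array barcode. The number of arrays limits the precision stated here, but it is not the only limit. For dim miRNAs the signal over background is a limit too, and the calls depended on single arrays and on the slide.

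In simulated data with 229 miRNAs and 20 draws, the beyond-range test called 0.0888% of miRNAs inside the range. It called 57.5% of those beyond it by 1 log2 unit and 88.3% of those beyond it by 2. The simulated noise was normal and independent between arrays, ES and LS had the same mean, and there was no floor or slide effect. Inside miRNAs were spread at random between the DN and DP means, not set at its edges. These rates are therefore not error rates of the calls on the real arrays.

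Named are the miRNAs beyond the range with arrays apart (12 a direction by size), called ones inside the range (6 a direction), those beyond it by rank (5 a direction), the 8 of highest share on each side, up to 4 of each list, and miR-21-5p, miR-342-3p, miR-128-3p, miR-148a-3p, miR-155-5p and miR-181a-5p. Others named complete a count or a seed family and were chosen after their values were seen. The members and lists were chosen with earlier results of these data known. The alternatives were other scalings, backgrounds, floors, filters, models, blocks and denominators, each slide alone and each array left out.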

Additional observations from a re-analysis of the deposited data

Results flagged for a closer look

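Single T-ALL arrays stood apart for several miRNAs, by the gap to the nearest of the other 5 relative to the range of the 6. Chance alone marks about 1 in 20 groups in this way, a rate that does not hold where the other 5 are tied at the floor. ES 3 was the highest T-ALL array for miR-223-3p, at 2.85 where the next was -5.93, for miR-146b-5p (-3.32, next -7.11), miR-322-5p (-3.21, next -6.74), miR-29a-3p (0.39, next -1.10), miR-29b-3p (-0.65, next -2.03) and miR-142-3p (3.18, next 2.54), and the lowest for miR-181d-5p (-4.27, next -3.36). miR-223-3p is a myeloid miRNA and miR-142-3p is found in blood cells in general. None of those highest on ES 3 was called beyond the range by scaled signal.

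LS 3 was the highest T-ALL array for members of the Sfmbt2-type group and for miR-672-5p. Its levels were -6.61 for miR-466j, -5.25 for miR-466m-5p, -5.87 for miR-669e-5p, -7.35 for miR-669f-5p, -6.48 for miR-669k-5p, -6.40 for miR-669o-5p and -5.62 for miR-672-5p. The next arrays were at -6.78 for miR-466m-5p, -7.43 for miR-669e-5p, -7.50 for miR-669o-5p and -6.99 for miR-672-5p, and for miR-466j, miR-669f-5p and miR-669k-5p at the floor of -7.59. Where all the others were at the floor, any step above it is marked, whatever its size.

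The change from ES to LS was called for miR-344i (1.32, adjusted p = 0.0202 in limma), miR-3473 (1.16, 0.0238) and miR-3473b (1.33, 0.0202) among the miRNAs above the range. For all 3 every LS array was above every ES array. miR-344i was above background on only some of the T-ALL arrays, and what the filter adds to its call was not tested.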

How the results depend on the processing

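The pooled comparison called 133 miRNAs, and 60 with only miRNAs above background on all 12 arrays, 82 with 1 mean for T-ALL and 1 for thymocytes, 30 within slide 1 and 110 to 154 with an array left out. Calls beyond the range by scaled signal, 38, became 23 with that filter, 25 without names that match no RefSeq miRNA, 2 within slide 1, 80 within slide 2, 17 with the replicate block and 11 to 55 with an array left out. By rank 60 became 30 with the filter, 2 within slide 1 and 21 to 71 with an array left out. By share 45 became 28 with the filter, 1 within slide 1, 85 within slide 2 and 16 to 59 with an array left out. The filter and the slides test fewer miRNAs or arrays, and for the other settings the cause was not tested. The model with 1 mean for each side gives no value against the separate stages and was not run for those.

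The difference in the share of the 10 brightest miRNAs, -0.207 points, was 0.273 in the authors' table, 0.124 within slide 1 and -1.49 to 0.635 with an array left out. In the authors' table the calls beyond the range split into 34 above and 12 below by signal, against 32 and 6, and into 33 and 10 by share, against 40 and 5. The median difference of all miRNAs, -0.12, was -0.26 after quantile normalization and 0.00 with the normexp background.

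Replicate numbers gave no clear pairing over all groups. Correlations of same-numbered arrays ran from -0.338 to 0.496, and 5 of 12 arrays correlated best with their own number. The 3 pairs of DP with LS were all positive (0.184 to 0.496), so a pairing of these groups cannot be told from the values. With the replicate block 125 miRNAs were called in the pooled comparison, 17 beyond the range by signal (all among the 38, whose direction held for all 38), 49 by rank and 36 by share.

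For single named miRNAs, 2446 outcomes kept direction and call, 298 lost the call, 58 gained it and 1 reversed, miR-146b-5p within slide 2 (0.89, adjusted p = 0.00503 in limma). Signal over background limits the dim miRNAs most, since 6 of those above the range were above background on no thymocyte array. These 6 were tested only because of their T-ALL signal.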
